A study of Rattus norvegicus with 18 samples.

Results

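Blood gene expression was compared between untreated Brown Norway (BN) and Sprague Dawley (SD) rats. The comparison took the 4 arrays labelled BN control and the 5 labelled SD control, which were 9 of the 18 Agilent 2-colour arrays of the series. All these animals were male, and both control groups had received sterile water. Blood was drawn from the venous sinus of the eye. The other 9 arrays came from rats of the same strains given procainamide at 40 mg/kg. They entered the normalisation, the choice of probes tested, and the estimates of spread and of slide. The series asks which factors lie behind the unequal autoimmune response of rat strains to procainamide, so the control comparison gives the state of each strain before the drug. Ages are not in the labels, nor is it stated there that arrays came from different animals. Each p-value therefore reflects only how these samples spread, which may be technical.

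Brown Norway is an inbred strain and Sprague Dawley an outbred stock. BN rats are known for immune responses that lean towards T helper 2 cytokines and immunoglobulin E, and for sensitivity to autoimmunity induced by chemicals. Blood RNA is a mixture of transcripts from white cells, platelets and young red cells. Its composition can differ between strains through the number of cells of a type or through the RNA that each cell holds.

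Each value below is a normalised log2 Cy5 signal of the sample. Values of different probes were not set against each other. Blood markers were present in both strains: the haemoglobin chain gene Hbb read 16.41 to 17.20 on the BN arrays and 16.89 to 17.10 on the SD arrays. The leukocyte surface gene Ptprc read 14.98 to 15.31 and 15.47 to 15.55. The share of probes well above background was 81.2% to 86.6% over the 9 arrays. The median raw Cy5 signal was 997 to 1986 on BN arrays and 2152 to 2876 on SD arrays. Precision is limited by the number of arrays.

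The 4 BN control arrays all lay on slide 2 and the 5 SD control arrays all on slide 1. Slide 2 was scanned on another day than slide 1. Strain and slide therefore coincide among the controls, and the effects cannot be told apart without other arrays. Of the SD procainamide arrays, 3 lay on slide 1 and 2 on slide 2. They allowed a second fit with slide as a block, in which the slide term rests on those 5 arrays. A further measurement came from the Cy3 channel, which by the labels carried RNA of control replicate 1 of the same strain on each array. On the arrays of control replicate 1 both channels would then hold the same RNA. The SD over genes of Cy5 minus Cy3 was 0.382 on BN control 1, between 0.326 and 0.436 on the other BN controls, and 0.239 on SD control 1, between 0.203 and 0.252 on the other SD controls. Replicate 1 was thus not the closest to the reference in either strain, so whether the reference is that RNA alone is unsettled, and whether it shares RNA with other control arrays was not tested. On slide 2 the BN reference (4 arrays) and the SD reference (on the 2 SD procainamide arrays) were read side by side. That value compares the reference of each strain, with no replicate RNA, and has no test. The SD reference on slide 2 against the same reference on slide 1 gave each gene's offset between slides. The median absolute difference over genes was 0.25 for strain in Cy5, 0.18 with the block, 0.13 between the references on slide 2, and 0.14 for the offset between slides. Of 13616 genes tested, 551 differed over 2-fold between the strains, 369 did with the block, 329 did between the references, and 52 had such an offset between slides.

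Without a slide term 2278 genes were higher in BN, 16.7% of those tested, and 2726 were higher in SD, 20.0% (limma, adjusted p under 0.05). With slide as a block 202 genes passed, 1.48%, and 193 of them had passed before. Of those 193 genes, 91 were higher in BN and 102 in SD. The median SE rose from 0.132 to 0.207. The 4 BN and 5 SD values did not overlap in 34.5% of all genes. Of the 526 genes called with over 2-fold differences, 111 also passed with the block. The genes described first are those with the largest differences among genes that passed both ways and did not overlap. Since the difference chose them, its size is given as a description.

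The largest named differences towards BN were those of a neighbouring pair of cytochrome P450 genes, Cyp2d5 and Cyp2d1. Cytochromes of the 2D family oxidise many drugs and are best known from liver. Their promoter windows are shown because the pair moved together and because the sequences are close to identical. These windows compare genes within a single genome build, and not the strains. The RefSeq windows (GRCr8, minus strand) are chr7:115784527-115784737 for Cyp2d5, chr7:115793435-115793645 for Cyp2d1 and chr7:115802143-115802353 for Cyp2d3. Each is 211 bases long and ends 40, 5 and 1 bases before the annotated start. Capitals mark the 19 positions at which the windows differ.
Cyp2d5: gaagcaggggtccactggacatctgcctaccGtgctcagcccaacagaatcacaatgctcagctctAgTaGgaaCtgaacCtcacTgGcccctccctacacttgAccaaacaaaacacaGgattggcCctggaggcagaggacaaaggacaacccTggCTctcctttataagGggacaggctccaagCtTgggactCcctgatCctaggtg
Cyp2d1: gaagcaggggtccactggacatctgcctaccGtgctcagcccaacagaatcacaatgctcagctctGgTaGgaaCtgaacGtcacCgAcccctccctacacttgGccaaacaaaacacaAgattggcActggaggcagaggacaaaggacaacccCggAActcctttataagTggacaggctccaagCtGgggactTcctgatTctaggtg
Cyp2d3: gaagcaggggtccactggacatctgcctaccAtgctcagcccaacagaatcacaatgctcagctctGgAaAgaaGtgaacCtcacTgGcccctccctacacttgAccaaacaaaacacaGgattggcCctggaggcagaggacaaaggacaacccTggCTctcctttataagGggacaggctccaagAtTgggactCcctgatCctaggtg
Cyp2d1 matched Cyp2d5 at all but 14 bases (93.4% identity), and Cyp2d3 at all but 6 (97.2%). The motif TATAA began at base 167 in all 3 windows. It stood on either strand in 24% of the 33469 RefSeq promoter windows of 250 bases.

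Cyp2d5 read 13.41, 12.92, 13.30 and 13.49 on BN controls 1 to 4, and 9.08, 8.98, 9.03, 9.25 and 9.22 on SD controls 1 to 5. The BN arrays were all far above the SD arrays, by 18-fold (log2 4.17 ± 0.135 SE, adjusted p = 8.11e-13; 4.34 with the block). Cyp2d1 read 13.09, 12.75, 13.24 and 13.17 in BN, and 9.01, 8.84, 9.04, 9.16 and 9.17 in SD, 16.2-fold higher in BN (4.02 ± 0.136). The Cy3 references on slide 2 differed by 4.22 for Cyp2d5 and 4.13 for Cyp2d1. No such rise was seen in Cyp2d3 and Cyp2d4. Cyp2d3 read 7.01 to 7.24 in BN and 6.88 to 7.21 in SD (log2 0.09, adjusted p = 0.422). Its signal was near background in both strains, so a difference in it could be missed. Cyp2d4 was lower in BN, with 9.88 to 10.15 against 10.35 to 10.63 (-0.48, adjusted p = 0.000379; 0.181 with the block). Since the family holds near-identical copies, the probes of Cyp2d5 and Cyp2d1 may read the same transcripts, and which of the genes carries the signal is uncertain.

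Among immune and blood genes higher in BN was Gpr15lg, the ligand of the lymphocyte homing receptor Gpr15. It read 11.74, 11.97, 11.96 and 12.15 in BN and 8.85, 8.87, 8.82, 8.76 and 8.90 in SD, 8.65-fold higher in BN (3.11 ± 0.115; Cy3 3.05). Selp, the P-selectin by which platelets and endothelium catch leukocytes, read 10.56, 10.50, 10.29 and 9.47 in BN and 8.07, 8.06, 7.97, 7.76 and 7.94 in SD. It was 4.74-fold higher in BN (2.25 ± 0.252, adjusted p = 1.11e-05; 0.0197 with the block). Hp, the haemoglobin scavenger haptoglobin and an acute phase protein, read 13.60, 12.85, 13.28 and 13.05 in BN and 11.01, 10.85, 11.02, 10.72 and 11.41 in SD, 4.57-fold higher. In whole blood, fewer cells of a type and less RNA per cell cannot be told apart. BN control 1 was the highest array for Selp and Hp, and no array of one strain reached the other. Csta, a cysteine protease inhibitor of the cystatin family, was 3.91-fold higher in BN and varied in both strains, with 10.30 to 11.49 against 8.38 to 9.68. Its adjusted p was 0.0348 with the block.

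Bcl2l15, a member of the Bcl2 family of apoptosis regulators, was 9.37-fold higher in BN (10.80 ± 0.068 against 7.57 ± 0.186, mean ± SD, n = 4 and 5). Atp6ap1l, named for its likeness to an accessory protein of the vacuolar proton pump, was 6.02-fold higher, with 12.32 on BN control 1 and 10.28 to 10.94 on the other BN arrays. Its SD values of 8.26 to 8.56 lay below all of these. The metabotropic glutamate receptor gene Grm4 was 5.07-fold higher in BN, and its other probe gave 3.19-fold. The odorant receptor gene Or5d20 was 4.72-fold higher, Mstn, which encodes the muscle growth inhibitor myostatin, 4.04-fold, and the ribosomal protein-like gene Rpl3l 3.82-fold. These genes are better known from other tissues than blood. Among the 12 genes higher in BN, Csta had the highest limma adjusted p, 0.000384 without a slide term and 0.0348 with the block.

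**Figure D1:**
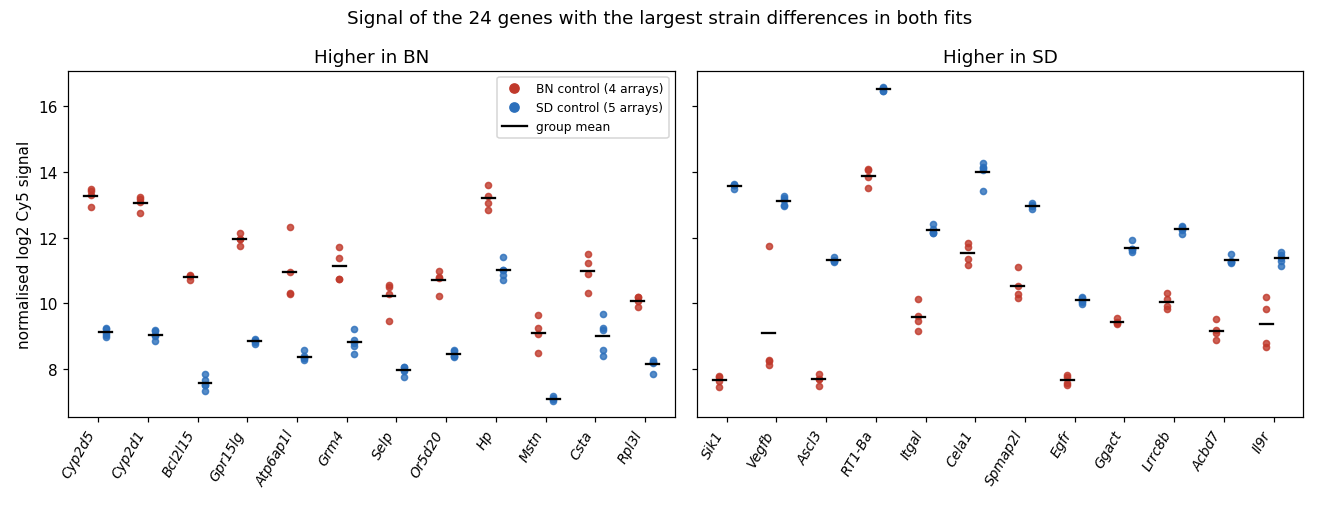
Normalised log2 Cy5 signal of the 12 genes higher in BN and the 12 higher in SD with the largest differences that passed both fits (points: arrays; bars: group means). No BN point overlaps the SD points of its gene by the rule that chose them, and Vegfb on BN control 4, at 11.75, stands far above the other BN arrays.

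Sik1, a salt-inducible kinase that acts on CREB coactivators and class IIa histone deacetylases, had the largest difference of the named genes. It read 7.64, 7.79, 7.76 and 7.46 on the BN arrays and 13.59, 13.49, 13.60, 13.59 and 13.63 on the SD arrays. It was 60.4-fold higher in SD (log2 -5.92 ± 0.168 SE, adjusted p = 4.43e-13; -6.27 with the block; Cy3 -6.11). The lowest SD value, 13.49, was far above the highest BN value, 7.79. Vegfb, a growth factor of the vascular endothelial growth factor family, read 8.12, 8.24 and 8.26 on BN controls 1 to 3 but 11.75 on BN control 4, against 12.95 to 13.27 in SD. It was 16.2-fold higher in SD, and 30.0-fold higher without BN control 4. Its Cy3 difference on slide 2 was -2.86. The BN reference read 10.13, above the 8.12 in Cy5 of BN control 1, the RNA it is labelled as, so for this gene the reference went against its label. The BN reference for Atp6ap1l, 11.31, was likewise apart from the 12.32 of BN control 1. Ascl3, a basic helix-loop-helix transcription factor, read 7.85, 7.70, 7.48 and 7.68 in BN and 11.26 to 11.40 in SD, 12.4-fold higher in SD.

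The epidermal growth factor receptor gene Egfr read 7.81, 7.75, 7.56 and 7.52 in BN and 9.98 to 10.20 in SD, a 5.39-fold difference. The log2 difference was -2.43 without a slide term, and smaller in size with the block (-1.72) and in Cy3 on slide 2 (-1.65). The offset between slides was -0.48. Cela1, a pancreatic-type elastase, was 5.60-fold higher in SD, and Ggact, an enzyme that cleaves gamma-glutamylamines, 4.76-fold. Lrrc8b, a subunit of the volume-regulated anion channel, was 4.62-fold higher in SD, and Acbd7, an acyl-CoA binding protein, 4.41-fold. Spmap2l, a gene named for its likeness to a sperm protein, was 5.47-fold higher. All 24 genes had the same direction in Cy3 on slide 2, from 1.47 for Mstn, the smallest in size, to -6.11 for Sik1, the largest, on the log2 scale. The offset between slides in these genes ranged from -0.48 (Egfr) to 0.51 (Sik1).

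**Figure D2:**
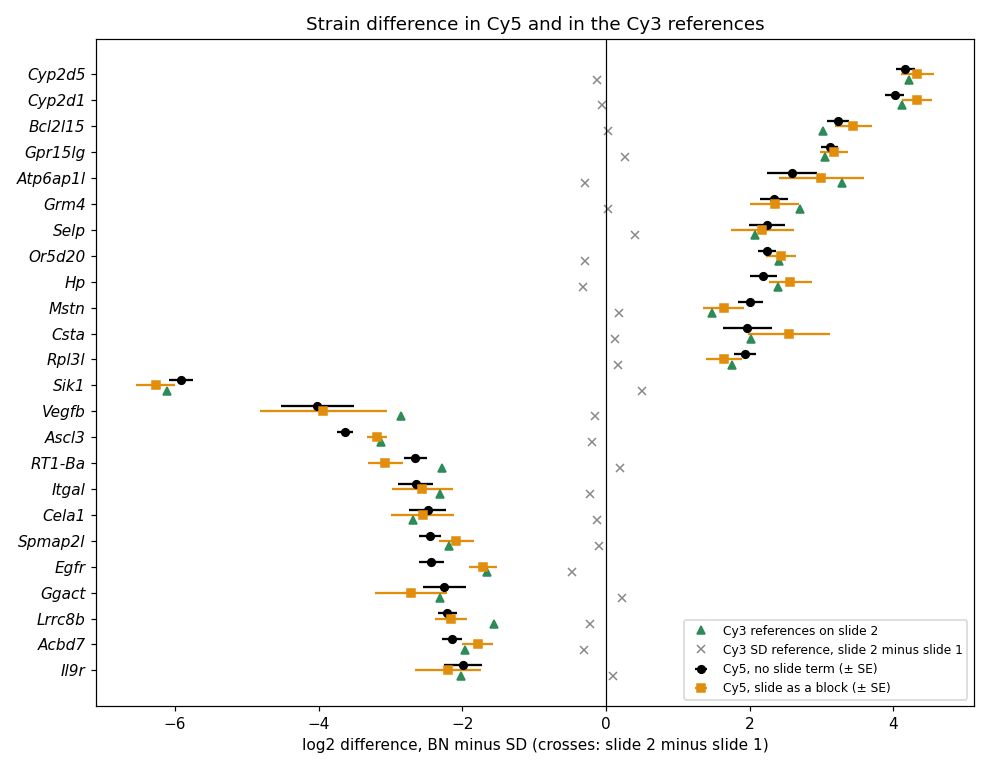
Log2 difference between BN and SD controls for the 24 genes, from Cy5 without a slide term and with slide as a block (± SE) and from the Cy3 references on slide 2, with the offset of the SD reference between slides as crosses. All 3 strain values lie on the same side of 0 for each gene, while the crosses lie between -0.48 and 0.51. For the Cy5 values this was largely fixed by the rule that chose the genes.

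Immune genes with lower signal in BN included chains of cell surface complexes. RT1-Ba, the alpha chain of the class II molecule RT1-B that presents peptides to helper T cells, read 13.50, 13.85, 14.05 and 14.09 in BN and 16.47, 16.55, 16.60, 16.46 and 16.56 in SD. It was 6.30-fold higher in SD (log2 -2.65 ± 0.160 SE, adjusted p = 7.03e-09; -3.07 with the block). The beta chain gene RT1-Bb, its neighbour, went the other way by its brighter probe: 16.32, 16.03, 15.98 and 15.50 in BN against 15.02 to 15.25 in SD, 1.76-fold higher in BN. Its other probe was 22.1-fold lower in BN (-4.47, adjusted p = 0.00168; -4.85, adjusted p = 0.186 with the block), and the mean of both was -1.83. The probes of RT1-Bb thus disagree in direction. The genes of the major histocompatibility complex differ in sequence between strains, and whether sequence under a probe moves these signals was not tested. The same question was not tested for any other gene, Sik1, Cyp2d5 and Cyp2d1 among them.

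Of 16 measured genes of class II presentation (20 listed), 2 were higher in BN and 2 lower, beside 16.7% and 20.0% of all genes tested. RT1-Ba and RT1-Bb alone passed with the block. The list's median log2 difference was -0.12 beside -0.05 over all genes tested. It was 0.12 with Cy5 scaled to the 75th percentile, so the direction of the list's median depends on scaling. It was -0.03 without BN control 1 and -0.20 without BN control 2. In class I presentation 8 of 35 measured genes (50 listed) were higher in BN and 4 lower (median 0.16; -0.13 with the block). The median was 0.50 at the 75th percentile, 0.31 with the processed signal, 0.10 without BN control 1 and 0.11 without BN control 4. RT1-M2, a class I gene of the M region, read 12.03, 12.35, 11.96 and 12.64 in BN and 10.89 to 11.25 in SD, 2.25-fold higher in BN, and passed with the block (adjusted p = 0.0492). RT1-M4 was 3.32-fold higher in Cy5 (1.73) but 0.42 with the block and -0.23 in Cy3 on slide 2. The other class I gene that passed with the block was RT1-CE15, named after its values were seen. It read 12.52 to 13.91 in BN and 14.07 to 14.49 in SD, 2.14-fold higher in SD (adjusted p = 0.0302 with the block). RT1-N2 was 1.79-fold and RT1-M5 1.30-fold higher in BN. These genes have close copies, so signals may be shared between them.

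Itgal, the alpha chain of the leukocyte integrin LFA-1, read 10.12, 9.60, 9.16 and 9.45 in BN and 12.15, 12.27, 12.40, 12.18 and 12.15 in SD, 6.28-fold higher in SD (-2.65 ± 0.241; Cy3 -2.31). The beta chain of LFA-1, Itgb2, did not share this. It was 1.41-fold higher in BN without a slide term, with 14.41 to 14.89 against 14.11 to 14.24, and -0.07 with the block. The interleukin 9 receptor gene Il9r read 8.68, 8.79, 10.20 and 9.82 in BN and 11.13 to 11.56 in SD, 3.99-fold higher in SD (adjusted p = 4.59e-05; 0.0231 with the block). BN controls 3 and 4 were the higher BN arrays, and both stayed below every SD array.

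Genes that were read well above background in one strain only carry a lower bound for the difference in Cy5 without a slide term. For the genes named here the bound equalled that fold itself. It sets no minimum for the block fit: Mageb4 had 1.33-fold there, below its bound, and Retnla 38.55-fold, above it. Towards SD the largest bound was that of Retnla, a resistin-like secreted protein of alternatively activated macrophages. It read 6.42 to 6.61 in BN, not well above background, and 10.15, 11.97, 9.93, 10.26 and 10.72 in SD, at least 16.9-fold higher (-4.08, adjusted p = 1.17e-05; 0.00117 with the block). Syce1, a protein of the synaptonemal complex, was at least 5.25-fold higher in SD, the ATP-gated channel gene P2rx2 3.49-fold, Adtrp, a hydrolase of lipids, 3.08-fold, and the egg coat gene Zp2 3.06-fold, each as such a bound. Zp2 did not pass with the block (adjusted p = 0.109). The SD arrays were brighter, with a median raw Cy5 signal of 2152 to 2876 against 997 to 1986 on BN arrays. The part of brightness in the counts of such genes was not tested. Of 13616 genes tested, 81 were of this kind towards SD and 6 towards BN. The 6 were the odontogenic protein gene Odam (at least 2.24-fold), Mageb4 (2.17-fold), the odorant receptor genes Or2l13c (1.89-fold) and Or4f62 (1.37-fold), Tsnaxip1 (1.63-fold) and the vesicle traffic gene Sytl5 (1.57-fold). Odam (adjusted p = 0.00232) and Sytl5 (0.0222) passed with the block, and the other 4 did not.

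In some genes the Cy5 difference had the size of the offset between slides. FAM187A read 6.84 to 7 in BN, not well above background, and 9.20 to 9.62 in SD, at least 5.43-fold higher in SD. Its block value was 0.00, its Cy3 difference -0.04 and its offset between slides -2.46. The phosphodiesterase gene Pde6b of rod photoreceptors, which was well above background on 2 of 4 BN arrays, read 6.95 to 7.44 in BN and 9.96 to 10.44 in SD, 8.20-fold higher in SD. It had 0.13 with the block and an offset of -2.96. The SD procainamide arrays showed the same step within the strain: Pde6b read 10.08 to 10.34 on slide 1 and 7.01 to 7.06 on slide 2. Cyp2d5 in the same arrays read 8.86 to 9.23 on slide 1 and 8.86 to 8.90 on slide 2.

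**Figure D3:**
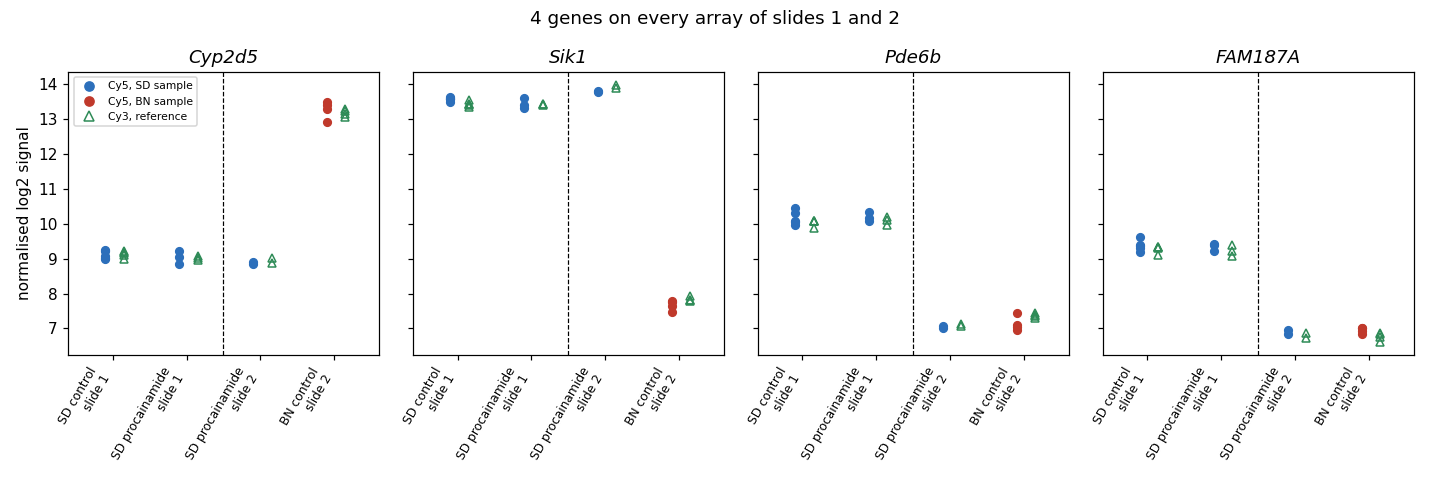
Normalised log2 Cy5 (filled) and Cy3 (open) signal of 4 genes on every array of slides 1 and 2, by group, with a dashed line between the slides. Within slide 2, Cyp2d5 and Sik1 differ between the BN control and the SD procainamide arrays, and no SD control array lies there. Pde6b and FAM187A read low on all slide 2 arrays of both strains, at 6.62 to 7.44.

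Genes were then grouped by lists of cell types and pathways, counted without a slide term. The folds of list members are also without a slide term. Among all genes tested 16.7% were higher in BN and 20.0% lower, and 1.48% passed with the block. A list count near these shares is no result about the list. Platelet genes were higher in BN in 10 of 16 measured members (21 listed) and lower in 0, with a median of 0.62 (0.46 with the block, 0.72 in Cy3). The share higher in BN was 62.5%, beside 16.7% of all genes tested. F13a1, the clotting factor XIII A chain, read 12.07, 11.51, 11.79 and 11.69 in BN and 10.54 to 10.87 in SD, 2.11-fold higher, and with Selp passed with the block (adjusted p = 0.00522). Gp5, a subunit of the receptor for von Willebrand factor, read 9.51, 8.82, 8.83 and 8.86 in BN and 7.80 to 8.14 in SD, 2.04-fold higher (adjusted p = 0.116 with the block). Alox12, the platelet lipoxygenase, was 1.81-fold higher (0.193 with the block). The mean over the platelet list was 11.73 to 12.34 on the BN arrays and 11.23 to 11.34 on the SD arrays, which did not overlap. Other lists, named with the connective tissue genes below, shared this.

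Neutrophil genes were higher in BN in 10 of 29 measured members and lower in 3, with a median of 0.08 (0.36 with the block), which was -0.02 without SD control 4, 0.02 without BN control 4, 0.14 without SD control 3, 0.25 without SD control 5 and 0.27 without BN control 3. It was 0.45 with Cy5 scaled to the 75th percentile. The higher members included defensins and proteases of neutrophil granules. The lower members were Chi3l1, a further granule protein (-1.01), the integrin chain gene Itgam (-0.48) and the oxidase subunit gene Ncf1 (-0.27). The granule protein genes Mmp9 (-0.54), Mmp8 (0.08) and Ltf (0.26) did not pass. These last 6 genes were named after their values were seen. RatNP-3b, a defensin, read 14.89, 14.22, 14.12 and 13.80 in BN and 12.01, 12.86, 12.01, 12.43 and 12.41 in SD, 3.76-fold higher in BN. Np4, a further defensin, was 3.22-fold higher, and Prtn3, the azurophil protease proteinase 3, 3.41-fold. Their BN and SD arrays did not overlap. The chemotactic receptor gene Fpr1, which mature neutrophils use, was 1.99-fold higher in Cy5 and 0.16 in Cy3, with an offset between slides of 0.74. With the block none of them passed: the value was 1.51 for RatNP-3b (adjusted p = 0.289), 1.28 for Np4 (0.278) and 2.06 for Prtn3 (0.161). In Cy3 on slide 2 these 3 differed by 2.10, 1.83 and 2.09. Defensin genes have near-identical copies, so their separate signals are uncertain.

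Basophil and mast cell genes were higher in BN in 9 of 17 measured members and lower in 1, with a median of 0.64 that was 0.64 with the block and 0.58 in Cy3. The tryptase genes Tpsab1 (8.84, 9.39, 8.85 and 9.23 in BN against 8.23 to 8.45 in SD) and Tpsb2 were 1.65-fold and 1.89-fold higher. The mast cell protease gene Mcpt9 was 1.62-fold higher. With the block Tpsab1 had 0.84 (adjusted p = 0.0608), Mcpt9 0.80 (0.131) and Tpsb2 0.55 (0.430). The member that was lower in BN, and the only one that passed with the block, was the cytokine gene Il4, given with the helper T cell genes below. The list mean was 10.21 to 10.71 in BN and 9.80 to 10.25 in SD, and the groups overlapped.

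Eosinophil genes (11 of 14 measured) were higher in BN in 2 members and lower in 1. The eosinophil ribonuclease gene Rnase3 read 8.65 to 10.80 in BN and 6.97 to 8.70 in SD, 3.70-fold higher with overlap and well above background on 4 of 5 SD arrays. Erythroid genes were higher in 2 of 24 measured members and lower in 3. The embryonic globin gene Hbe1, which was well above background on 2 of 4 BN arrays, read 8.30, 6.94, 7.14 and 7.77 in BN and 9.65 to 10.75 in SD, 7-fold higher in SD (adjusted p = 0.0167 with the block). The erythroid list mean was 14.03 on BN control 1 and 11.85 to 12.66 on the other BN arrays, against 12.27 to 12.91 in SD. BN control 1 thus stood highest among all 9 arrays. By its label its RNA is also the BN reference in Cy3, which the spread between channels given above did not settle.

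**Figure D4:**
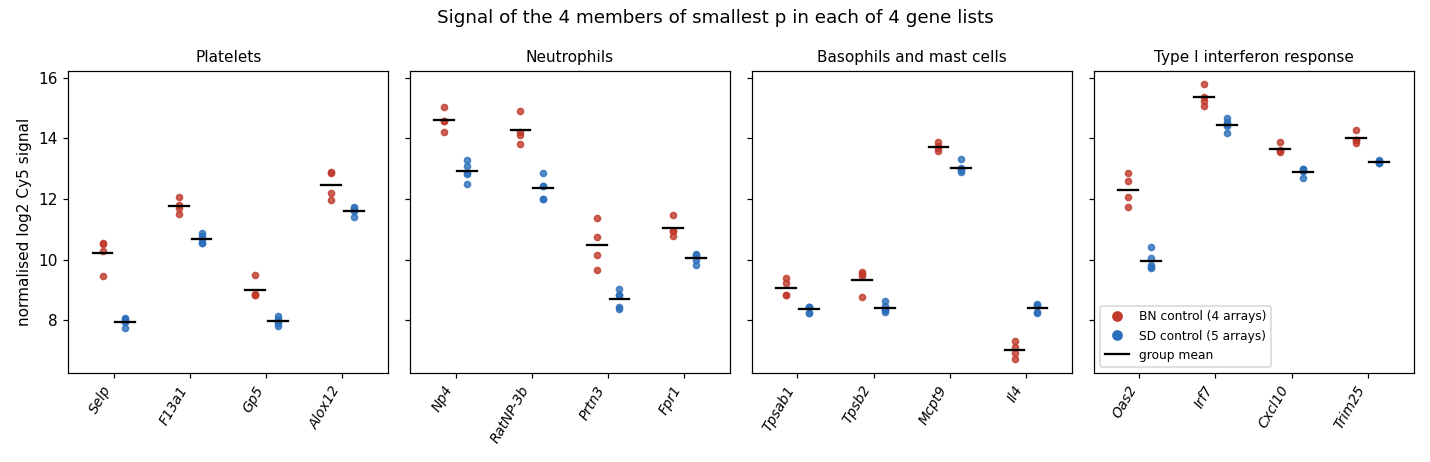
Normalised log2 Cy5 signal of the 4 genes of smallest p in each of 4 lists (points: arrays; bars: group means). All but Il4 lie higher on the BN arrays, and RatNP-3b reads 13.80 to 14.89 in BN against 12.01 to 12.86 in SD.

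Helper T cell genes of the Th2 type, which serve allergy and antibody help, were higher in BN in 0 of 15 measured members and lower in 4, with a median of -0.20 (-0.13 without BN control 1). Il4, the leading Th2 cytokine, read 7.11, 6.73, 6.94 and 7.33 in BN, with 1 of 4 arrays well above background, and 8.54, 8.52, 8.46, 8.25 and 8.29 in SD. It was 2.62-fold higher in SD (-1.39 ± 0.14, adjusted p = 4.46e-06; 0.0231 with the block; Cy3 -0.96). Ccr4, a chemokine receptor of Th2 and regulatory cells, read 7.36 to 7.89 in BN and 8.38 to 9.63 in SD, 2.51-fold higher in SD (adjusted p = 0.147 with the block). Gata3, the master transcription factor of Th2 cells, was 1.42-fold and the alarmin cytokine Il33 1.36-fold higher in SD (0.295 and 0.484 with the block). Th1 genes were higher in BN in 4 of 13 and lower in 2, with a median of -0.12 (-0.07 without BN control 3, -0.04 at the 75th percentile and -0.06 with the processed signal). The interleukin 12 receptor gene Il12rb1 was 1.57-fold and the Th1 factor Tbx21 1.40-fold higher in BN, while the homeobox factor Hlx was 1.40-fold lower. None of these 3 passed with the block.

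Of Th17 and regulatory T cell genes (15 of 20 measured), 2 were higher in BN and 5 lower, with a median of -0.20 (0.07 with Cy5 scaled to the 75th percentile). The inhibitory receptor gene Ctla4 was 1.87-fold lower, the costimulatory receptor genes Tnfrsf4 and Tnfrsf18 1.52-fold and 1.89-fold, and the chemokine receptor gene Ccr6 1.47-fold. T cell markers were higher in 3 of 28 and lower in 5, Cd27 by 1.35-fold. B cell markers were higher in 1 of 17 and lower in 2. Fcer2, the low-affinity receptor for immunoglobulin E on B cells, read 11.34, 11.34, 11.64 and 11.65 in BN and 12.06 to 12.37 in SD. It was 1.63-fold higher in SD and passed with the block (adjusted p = 0.0355). The inhibitory receptor gene Btla was 1.59-fold higher in SD by 1 probe and 0.07 by the other. Plasma cell genes (9 of 16 measured) were higher in BN in 2 and lower in 1, with a median of -0.18 (0.16 with the scanner's processed signal, -0.01 at the 75th percentile). The higher members were Prdm1 and Irf4, transcription factors of plasma cell formation, at 1.77-fold and 1.86-fold (adjusted p = 0.306 and 0.124 with the block). The lower member was the secretory chaperone gene Fkbp11 (-0.52; 0.958 with the block), and the other 6 had values of -0.01 (Tnfrsf17) to -0.39 (Derl3), none past the threshold. The other Prdm1 probe gave -0.11 (adjusted p = 0.417).

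NK cell genes were higher in BN in 2 of 37 measured members and lower in 3, among them the receptor genes Klri1 (1.55-fold) and Klrc3 (1.85-fold). With the block Klri1 had -0.55 (adjusted p = 0.321) and Klrc3 -0.26 (0.741). Monocyte genes were higher in 1 of 22 and lower in 4. Nr4a1, the nuclear receptor of patrolling monocytes, read 11.90, 11.88, 12.28 and 12.07 in BN and 12.75 to 13.01 in SD, 1.80-fold higher in SD (adjusted p = 0.0841 with the block). Ccr2, the chemokine receptor of inflammatory monocytes, was 1.83-fold higher in SD. Among chemokine receptors, higher in BN in 2 of 20 and lower in 5, the scavenging receptor gene Ackr2 passed with the block. It read 8.92 to 9.12 in BN and 9.76 to 9.98 in SD, 1.77-fold higher in SD (adjusted p = 1.03e-05; 0.00482).

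Genes of the type I interferon response were higher in BN in 15 of 47 measured members and lower in 1. With the block 0 passed, beside 1.48% of all genes tested. The share higher in BN was 31.9%, beside 16.7% of all genes tested. The list's median was 0.24, 0.21 with the block and 0.36 in Cy3. It was 0.12 without BN control 1, 0.44 with Cy5 scaled to the 75th percentile and 0.40 with the processed signal. The list mean was 13.86 on BN control 1, 13.29 to 13.48 on the other BN arrays and 13.03 to 13.34 on the SD arrays, which overlapped. Oas2, an antiviral oligoadenylate synthetase, read 12.07, 11.72, 12.58 and 12.85 in BN and 9.83, 9.73, 9.76, 10.42 and 10.07 in SD, 5.08-fold higher in BN. Its size was 2.34 in Cy5 without a slide term, 1.05 with the block (adjusted p = 0.227) and 0.60 in Cy3. Irf7, the transcription factor that amplifies interferon production, read 15.77, 15.22, 15.06 and 15.35 in BN and 14.18 to 14.65 in SD, 1.87-fold higher. It kept 0.85 with the block (adjusted p = 0.0926) and had 1.08 in Cy3. The chemokine Cxcl10 and the ubiquitin ligase gene Trim25 were 1.68-fold and 1.71-fold higher in Cy5, with 0.20 and 0.19 with the block.

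Toll-like receptor genes and adapters (23 of 29 measured) were higher in BN in 5 members and lower in 3. Tlr10, a receptor of B cells, read 11.54, 11.90, 11.62 and 11.91 in BN and 13.01 to 13.19 in SD, 2.53-fold higher in SD, and passed with the block (adjusted p = 0.0111). Tlr2, a receptor for bacterial lipopeptides, was 1.54-fold lower in BN, while the adapter kinase gene Irak4 and the adapter gene Myd88 were 1.61-fold and 1.21-fold higher. Of NF-kB targets and inflammatory cytokines (22 of 30 measured), 1 was higher in BN and 3 lower. Il12b and Il12a, the subunits of interleukin 12, were 2.59-fold and 1.80-fold lower in BN, and the chemokine gene Ccl3 1.32-fold. Complement genes (30 of 39 measured) were higher in 5 and lower in 5, each 16.7%, beside 16.7% and 20.0% of all genes tested. The central component C3 was 1.89-fold lower in BN, and the lectin pathway protease Masp1 and the inhibitor chain C4bpb were 2.10-fold and 1.76-fold higher. Fc and paired receptor genes (28 of 36 measured) were higher in 3 and lower in 3, with the inhibitory receptor Lilrb4 2.33-fold lower and Sirpa 1.31-fold higher. As a mean of its probes Sirpa did not pass. Except for Tlr10, none of the genes named in this paragraph passed with the block.

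Procainamide is known to inhibit DNA methylation, and some T cell genes rise when methylation is lost. Of the genes listed as sensitive to it (9 of 12 measured), 0 were higher in BN and 4 lower, with a median of -0.48 (-0.53 with the block, -0.58 in Cy3). The share lower in BN was 44.4%, beside 20.0% of all genes tested. Itgal and Il4, described above, were the 2 that passed with the block. Cd40lg, the ligand by which T cells help B cells, read 7.60 to 8.02 in BN and 8.39 to 9.16 in SD, 2.08-fold higher in SD (adjusted p = 0.188 with the block). In the methylation machinery (12 of 18 measured) 0 genes were higher in BN and 4 lower, while the median was 0.01, beside -0.05 over all genes. That median was -0.07 without BN control 1, and also below 0 without BN control 2 or 4 or SD control 4 or 5. Gadd45b and Gadd45g, which take part in demethylation, were 1.38-fold and 1.71-fold lower in BN, and Dnmt3l, a cofactor of methyltransferases, 1.46-fold. With the block 0 of the 12 passed, beside 1.48% of all genes tested.

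Genes of drug metabolism (44 of 56 measured) were higher in BN in 6 and lower in 12, and Cyp2d5, Cyp2d1 and Fmo5 passed with the block. Fmo5, a flavin-containing monooxygenase, read 8.72, 8.81, 8.63 and 9 in BN and 10.45 to 10.62 in SD, 3.36-fold higher in SD (adjusted p = 0.0145 with the block). Aldh3a1, an aldehyde dehydrogenase, was 2.35-fold higher in SD (0.108 with the block). Nat1 and Nat2, which encode N-acetyltransferases and were named after their values were seen, differed little. Nat1 was lower in BN (-0.41, adjusted p = 0.00600; 0.728 with the block). Nat2 read 10.21 to 10.55 in BN and 9.96 to 10.38 in SD, which overlapped (0.27, adjusted p = 0.277).

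Clock genes (14 of 18 measured) were higher in BN in 2 and lower in 5. Nr1d1, the repressor Rev-erb alpha, read 8.05, 7.70, 8.15 and 8.19 in BN and 9.03 to 9.44 in SD, 2.27-fold higher in SD, and passed with the block (adjusted p = 0.0303). Cry1 was 1.45-fold lower in BN, and Per3 and Bmal1, the activator that Nr1d1 represses, were 1.68-fold and 1.23-fold higher (adjusted p = 0.844, 0.306 and 0.355 with the block). The labels give no time of day for the blood draws. Immediate early genes, which respond to stimuli within minutes, were higher in 4 of 26 and lower in 5. Klf4, a transcription factor of monocytes and other cells, read 13.17 to 13.34 in BN and 13.66 to 13.80 in SD, 1.42-fold higher in SD (0.0460 with the block). Nr4a3 was 2.00-fold lower in BN and the stress factor Atf3 1.92-fold higher. With the block Nr4a3 had -0.24 (adjusted p = 0.678) and Atf3 0.98 (0.136), and in Cy3 they had -0.18 and 0.51. Of glucocorticoid-responsive genes 1 of 19 was higher and 2 lower, with Ddit4 1.37-fold higher and the kinase gene Sgk1 1.48-fold lower. As a mean of its probes Ddit4 did not pass.

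Cell cycle genes were higher in BN in 6 of 29 and lower in 0, with a median of 0.35 that was 0.07 without BN control 1. Birc5, the apoptosis inhibitor survivin, read 13.82, 13.14, 13.54 and 13.47 in BN and 11.78 to 12.38 in SD, 2.58-fold higher, with 0.74 with the block (adjusted p = 0.229). The mitotic kinase gene Plk1 was 1.82-fold, the cyclin gene Ccna2 1.63-fold and the replication licensing gene Mcm4 1.30-fold higher. The list mean was 13.86 on BN control 1, the array of highest erythroid signal, and 12.82 to 12.98 on the other BN arrays, against 12.59 to 12.94 in SD. The part of young red cells in these values was not tested. Genes of apoptosis and clearance were higher in 7 of 29 and lower in 6, with the nuclease gene Dnase1 1.52-fold and the cell death gene Bbc3 1.36-fold higher.

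Genes of ribosomal proteins were higher in BN in 12 of 72 and lower in 4, with Rpl13 at 1.25-fold. The share higher in BN was 16.7%, as over all genes tested. Their median of 0.02 became 0.70 with Cy5 scaled to the 75th percentile. Oxidative phosphorylation genes were higher in 6 of 63 and lower in 9, with the complex I subunit Ndufb10 1.84-fold lower and the cytochrome oxidase subunit Cox5a 1.29-fold higher. Glycolysis genes were higher in 6 of 28 and lower in 2, with hexokinase 2 (Hk2) 1.94-fold and aldolase C (Aldoc) 1.48-fold higher. With the block 0 members of these 3 lists passed, beside 1.48% of all genes tested.

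Lists of genes of tissue around the site of the blood draw were also counted. Connective tissue and muscle genes were higher in BN in 0 of 27 measured members and lower in 11, with a median of -0.33 (-0.29 with the block, -0.32 in Cy3, -0.01 with Cy5 scaled to the 75th percentile). Lum, a proteoglycan of collagen fibrils, read 8.47, 8.97, 8.20 and 8.61 in BN and 9.34 to 10.66 in SD, 2.99-fold higher in SD. The muscle calpain gene Capn3 was 2.62-fold higher and the myosin gene Myh4 1.38-fold higher in SD. The list mean was 11.76 to 11.93 in BN and 12.08 to 12.45 in SD, which did not overlap. This also held for the class II, B cell, Th2, Th17 and regulatory T cell, methylation-sensitive, clock, endothelial, oxidative phosphorylation and platelet lists. Among single genes it held for 34.5%. With Cy5 scaled to the 75th percentile the oxidative phosphorylation median of -0.05 became 0.27. The B cell, clock and endothelial medians of -0.17, -0.19 and -0.16 became -0.02, -0.07 and -0.07. The platelet and methylation-sensitive medians of 0.62 and -0.48 became 0.68 and -0.50. The part of connective tissue and muscle in other results was not tested. Endothelial genes were higher in BN in 1 of 14 and lower in 3 (21.4%, beside 20.0% of all genes), the cadherin Cdh5 1.70-fold higher and the transcription factors Sox18 and Sox17 1.77-fold and 1.64-fold lower. Eye and gland genes (18 of 32 measured) were higher in 5 and lower in 3. Scgb2a1, a secretoglobin of glands, read 7.11 to 7.44 in BN, with 3 of 4 arrays well above background, and 6.27 to 6.41 in SD with none. It was at least 1.88-fold higher in BN and passed with the block (adjusted p = 0.00669). Pde6a, a subunit of the same rod enzyme as Pde6b, was 2.17-fold higher in BN, opposite to Pde6b, with 0.43 with the block, and its other probe gave -0.20 (adjusted p = 0.446). Tissue kallikreins (14 of 23 measured) were higher in 4 and lower in 1. Klk10 was 2.09-fold and Klk1c10 1.81-fold higher. With the block Klk10 had 0.52 (adjusted p = 0.250) and Klk1c10 0.62 (0.153), and in Cy3 they had -0.06 and 0.26.

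**Figure D5:**
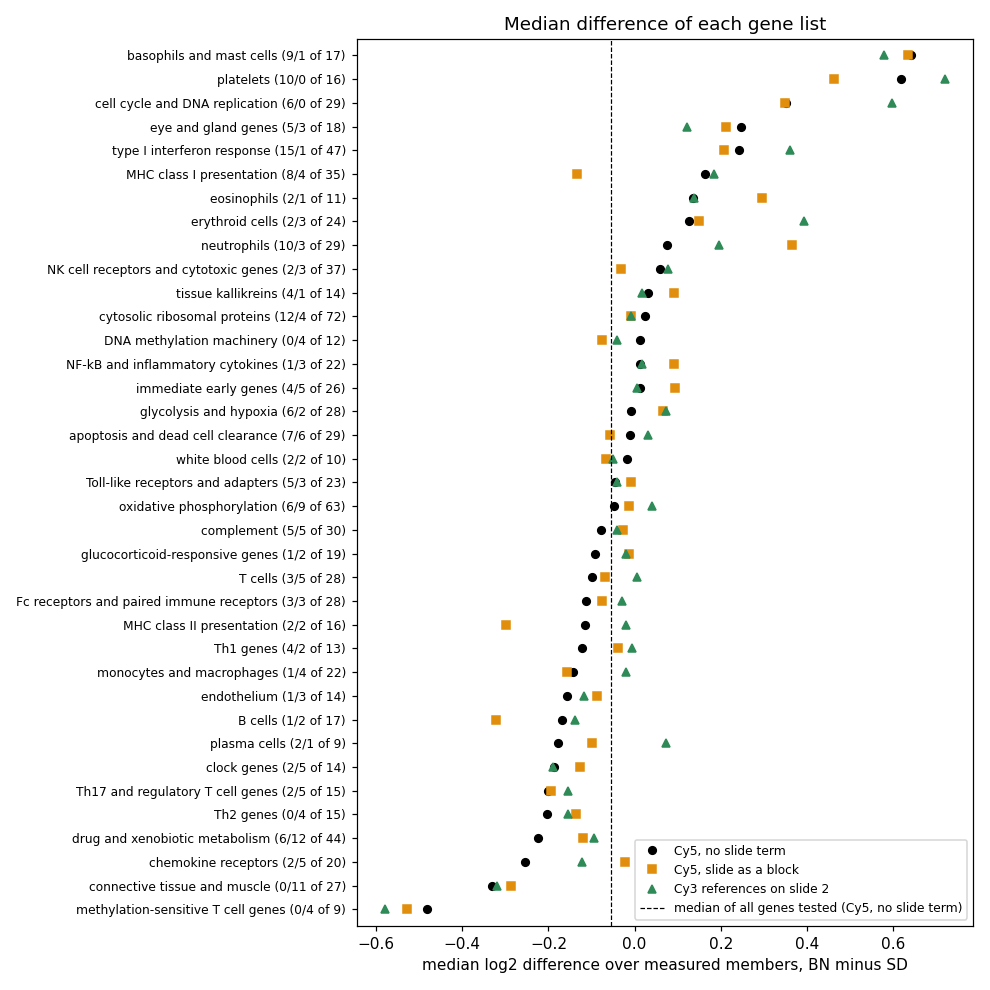
Median log2 difference between BN and SD controls over the measured members of each gene list, from Cy5 without a slide term, Cy5 with slide as a block, and the Cy3 references on slide 2. Labels give the members higher and lower in BN of those measured, and the dashed line is the median of all genes tested (-0.05). In Cy5 the mast cell and platelet lists lie highest, in Cy3 the platelet and cell cycle lists, and methylation-sensitive T cell genes lie lowest in all 3 series.

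The balance of directions over the whole array depended on scaling. Of the 10189 probes called without a slide term, 56.1% were higher in BN, and with Cy5 scaled to the 75th percentile it was 77.2% of 11857, where the median of all probes shifted by 0.19. The 24 genes of largest difference kept their direction under that scaling and passed with the block under it. They had been chosen from the same arrays for passing both fits, so this is a description and no separate test.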

How the data were processed

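The files hold Cy5 and Cy3 spot intensities that the authors deposited as scanner output, made with Agilent Feature Extraction 10.7.1.1 on array design 028279 (design build rn4), per the file headers. The authors' scanner software also gave the processed intensity, background-subtracted and dye-normalized per the file headers, used only as an alternative. By the labels Cy5 holds the sample and Cy3 control replicate 1 RNA of the same strain, so log ratios cannot compare the strains and the Cy5 channel was used alone.

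Median spot and background intensities were corrected with normexp (offset 50), normalised by loess within arrays and Aquantile between arrays, and averaged over spots of a probe (limma 3.58.1, R 4.3.3). A probe was tested if 4 or more arrays, counting all 18, read it well above background, which kept 26446 of 30367. Procainamide arrays counted too, so a tested probe could be dim on the controls. None was saturated. A gene was read by its brightest probe, for 13616 genes. Genes called without the block had 766 other probes well above background on all 9 control arrays. Of these, 474 had the same sign as the brightest probe, 207 were called the same way and 91 the opposite way. For genes called in both fits 18 of 25 other probes had the same sign, 12 were called the same way and 1 the opposite way. All 18 arrays entered lmFit and eBayes with a mean per group, 2-sided, Benjamini-Hochberg adjusted, threshold 0.05. Slide as a block, the Cy3 references, other scalings, filters, batch terms and leaving out arrays were alternatives. The fit was tested on simulated data. The Cy3 label was checked by the spread of Cy5 minus Cy3 on each control array.

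Named were the 12 largest differences per direction that passed both fits without overlap and well above background on all 9 control arrays, the 6 largest lower bounds per direction, and up to 4 members of smallest p from each list; unnamed loci were passed over. A bound sets the brighter group's mean against, per array of the dimmer group, the higher of its own signal and the lowest signal well above background. The members and lists were chosen with earlier results of these data known. Promoter windows came from RefSeq tables (GRCr8), where 191 of 193 genes called in both fits were placed. Results for some named genes are not reported here. The 8 listed sex chromosome genes were not measured. Replicate numbers did not pair the samples: deviations of same-numbered arrays correlated at -0.17, 0.04, -0.33 and 0.08.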

Additional observations from a re-analysis of the deposited data

Results flagged for a closer look

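In 284 groups of 4 or 5 arrays, 17 held 1 array far from the others (5.99%), and chance gives about 1 in 20 (5%). The widest was the growth factor gene Vegfb, which read 11.75 on BN control 4 and 8.12 to 8.26 on the other BN arrays. On the same array the tissue kallikrein gene Klk10 read 10.04 (others 9.58 to 9.63), the channel gene Calhm6 14.70 (14.30 to 14.35) and the NK receptor gene Klrc3 9.22 (10.02 to 10.14).

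On BN control 1 the platelet gene Gp5 read 9.51 (others 8.82 to 8.86) and the tryptase gene Tpsb2 8.76 (9.45 to 9.59). On BN control 3 the receptor gene Tlr2 read 13.98 (14.30 to 14.35) and the acetyltransferase gene Nat1 11.83 (12.15 to 12.18).

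Among SD arrays, control 2 read 11.44 for the calpain gene Capn3 (others 10.37 to 10.61), 12.70 for the chemokine gene Cxcl10 (12.92 to 12.99), 13.31 for the protease gene Mcpt9 (12.89 to 13.01) and 13.49 for the kinase gene Sik1 (13.59 to 13.63). Control 1 read 13.41 for Cela1 (14.06 to 14.28). Control 3 read 11.94 for Ggact (11.57 to 11.66) and 12.20 for Sox18 (12.40 to 12.47). Control 4 read 13 for RT1-M4 (11.91 to 12.10), and control 5 read 7.85 for Rpl3l (8.17 to 8.27).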

How the results depend on the processing

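Without a slide term 10189 probes and 5004 genes passed. Slide as a block left 377 probes (200 higher in BN, 177 in SD) and 202 genes (96 and 106), as did scan day, which separates the same arrays. With brightness as a term 2753 probes (1510 and 1243) and 1373 genes (657 and 716) passed. With Cy5 at the 75th percentile 9150 probes and 3782 genes were higher in BN, 2707 and 1756 in SD, and 224 probes passed with the slide block. Leaving out 1 control array gave 8519 to 10289 probes and 4152 to 5037 genes. With the slide block leaving out 1 array gave 159 to 563 probes: 563 without BN control 1, 244 without SD control 2, and 234, 238, 159 and 163 without SD procainamide 2, 3, 4 and 5. The replicate block gave 9616 probes, of which 9208 were also called without it; the numbers do not pair the samples.

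Reversals were listed for 142 named genes. They were FAM187A 0.001, Itgb2 -0.073 and Pde6b 0.134 with slide or scan day, Ptprc 0.014 with the scanner's processed signal, and RT1-Bb -1.828 as a mean of its probes. The cause was not tested. Of the wider set of 163 genes picked by the naming rules, 42 passed with the slide block and 157 kept their direction. With the processed signal 141 passed and at the 75th percentile 147, and 155 kept their direction in each. With brightness 89 passed, and 153 to 158 without 1 control array. All 24 genes of largest difference, chosen for passing the block fit, kept their direction in each alternative of it and 16 to 24 passed. Vegfb and Csta were lost most often, and 8 were lost without SD procainamide 5. The slide term rests on 5 arrays. Signal over background was 27.3 to 42.3 on BN and 41.4 to 48.8 on SD arrays.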

Other observations

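The genes here were chosen after their values were seen. Gpr15, the receptor of the ligand gene Gpr15lg that was higher in BN, went the other way. It read 9.17, 9.26, 8.99 and 9.35 in BN and 10.52, 10.48, 10.66, 10.34 and 9.89 in SD, 2.28-fold higher in SD (limma, adjusted p = 0.0474 with the slide block).

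Some large differences lay in genes that were not well above background on every array of the dimmer strain. Echdc2, named for its enoyl-CoA hydratase domain, read 9.72 to 10 in BN and 6.02 to 6.57 in SD, where 1 of 5 arrays was well above background (11.8-fold). The C-type lectin gene Cd209d was 9.73-fold higher in BN, with 2 of 5 SD arrays well above background. Itln1, an intelectin that binds microbial sugars, was 7.24-fold higher, and the phosphatase gene Ptprh 4.63-fold, each with 4 of 5 SD arrays. Towards SD, the butyrophilin-like gene Btnl5 was 6.90-fold higher with 1 of 4 BN arrays well above background, and the acyltransferase gene Gpat2 6.22-fold with 2 of 4. All 6 passed with the slide block.

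Among the 193 genes that passed both ways, 3 pairs were adjacent protein-coding genes: Cyp2d5 with Cyp2d1, RT1-Ba with RT1-Bb, and the channel genes Calhm5 with Calhm6. Calhm5 was 3.07-fold and Calhm6 1.60-fold higher in SD. Of these pairs 2 went the same way. RT1-Ba with RT1-Bb did not by the brighter RT1-Bb probe, but did by the mean of the RT1-Bb probes (-1.83).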
